A study of Capra hircus with 40 samples.

Results

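The uterus of female Jining gray goats was compared between month 6 and month 4 after birth, with 5 libraries at each age. These are 10 of the 40 libraries of a bulk RNA sequencing series that also covers day 1, month 2 and the ovary. The 10 were taken by the tissue and age on their labels. All animals were females of a single farm, raised alike, with no treatment and no genetic modification named in the labels. Each library is whole uterus from 1 individual, so glands, stroma, muscle, vessels and any attached tissue enter together. A lower level may mean fewer cells of a type or less RNA per cell, and these cannot be told apart.

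The uterine wall is made of an endometrium, with a surface epithelium, glands and a hormone-responsive stroma, and of smooth muscle layers around it. In ruminants the endometrial glands finish their branching after birth, and in the adult they secrete proteins such as uterine serpin into the lumen under the control of oestrogen and progesterone. Puberty in small early-maturing goat breeds falls within the first months of life, and the labels do not say whether any of these animals had cycled. The question the design poses is which genes differ in the uterus between these ages.

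Totals ran from 31925520 to 62703770 counts per library, with month 4 libraries 1 and 3 lowest at 31925520 and 38072361. Between 19526 and 20799 genes had at least 1 count. The counts of every pair of libraries of the same age differed by more than sampling noise, with a chi-square per degree of freedom of at least 83.5. Pairs across the ages were not compared in this way. Levels are given as CPM, counts per 1000000 counts of the library, with totals scaled for library composition, with the 5 libraries of an age in the order 1 to 5.

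Month 4 library 5 was low in epithelial genes and in part of the genes that pattern the uterus. The library was singled out in advance for low HOXA10 and EPCAM, so its values for these are a description. HOXA10, a transcription factor that patterns the uterus, read 94.1, 59.7, 46.4, 61.3 and 3.20 CPM at month 4. EPCAM, an epithelial adhesion protein, read 149, 100, 123, 90.9 and 9.46. FOXA2, needed for uterine glands in mouse, stood at 7.53, 5.84, 7.64 and 6.83 in the first 4 libraries and at 0 in library 5. In that library 18 of 20 epithelial and gland markers, EPCAM among them, were at their lowest of the 10 libraries, and their summed level was 165 CPM against 743 to 1183 in the other month 4 libraries. ESR1, the oestrogen receptor, was also lowest there, at 96.4 CPM against 792 to 1136. The stromal and Mullerian duct patterning genes went both ways. Of 20 measured, 9 were lowest there and 3 highest, with DCN at 4574 CPM and VIM at 2793 among the high ones. Their summed level was 8226 CPM against 2636 to 4776 in the other month 4 libraries.

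The same library was high in matrix, arterial and muscle genes. ELN, the core protein of elastic fibres, read 49.1, 45.7, 51.4, 51.6 and 11534 CPM at month 4, and 15.6 to 60.6 at month 6. COL8A1, a collagen of vessel walls named here after its values were seen, read 1450 CPM there and at most 2.27 in the other month 4 libraries. Of 17 measured arterial wall markers, 15 were at their highest there, with a sum of 24667 CPM against 2067 to 3738 in the other month 4 libraries. Of 20 smooth muscle markers, 17 were highest there, with a sum of 19503 against 4998 to 10764. Because of this library, the counts and list medians below are given with all 10 libraries and without it. The log2 fold changes are given both ways for many of the genes named, but not for all. In this library 242 genes were at least 4 times the highest of the other 9 and at 10 CPM or more, and 69 were that far below.

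Other libraries stood apart to a lesser degree. By the same rule month 6 library 2 had 139 high and 7 low genes, month 6 library 3 had 56 and 3, and each of the other 7 libraries had at most 12 high and 2 low. On the first 2 principal components, which held 26% and 23.3% of the variance, month 4 library 5 lay alone at 104 and -137. Month 6 libraries 4 and 5 lay beside month 4 libraries 1, 3 and 4, and month 6 libraries 1, 2 and 3 lay higher on the second component. Month 4 library 2, at 12.8 and 35.1, lay between these sets on the second component.

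**Figure D1:**
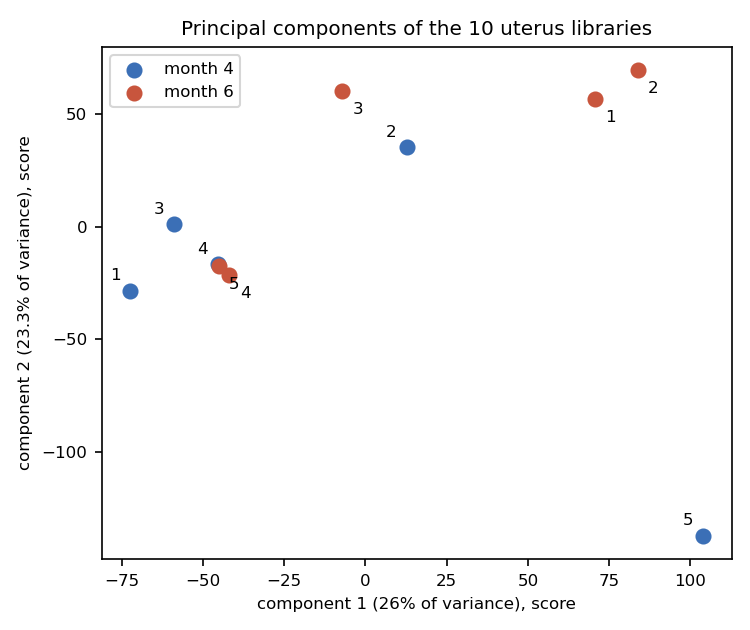
Scores of the 10 uterus libraries on the first 2 principal components of log2 CPM (axes in score units, share of variance in percent), blue for month 4 and red for month 6, with the library number beside each point. Month 4 library 5 lies alone at 104 and -137, and month 6 libraries 4 and 5 lie among the month 4 libraries.

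No gene passed the test between month 6 and month 4. With edgeR's quasi-likelihood test, 0 of 18789 genes had an adjusted p under 0.05 with a log2 fold change of at least 1 in size, which is 0% of those tested. The smallest adjusted p was 0.368. An unadjusted p under 0.05 was reached by 2028 genes (10.8%), of which 938 were higher at month 6 (4.99%) and 1090 lower (5.8%). The median log2 fold change over all genes, month 6 minus month 4, was -0.00284. For 106 genes (0.564%) the 5 libraries of one age did not overlap the 5 of the other, with month 6 higher for 56 (0.298%) and lower for 50 (0.266%).

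Leaving out month 4 library 5 left the count of calls at 0 of 19064 genes (0%), with a smallest adjusted p of 0.371 by edgeR. Then 2047 genes had an unadjusted p under 0.05 (10.7%), 1070 of them higher at month 6 (5.61%) and 977 lower (5.12%). The ages did not overlap for 251 genes (1.32%), with month 6 higher for 131 (0.687%) and lower for 120 (0.629%). The library weighed on direction more than on these totals. Without it the log2 fold change of 611 genes moved up by more than 1, and 2638 genes changed sign. None moved down by as much. That was fixed in advance, since leaving out a library near 0 raises the month 4 mean only a little. FOXA2, at 0 in that library, went from 1.64 to 1.32. Of the genes with an unadjusted p under 0.05, 1283 had it in both fits with the same sign, 744 only with the library and 740 only without it.

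DESeq2 gave other counts at the same threshold. It called 53 genes with all libraries, 28 higher and 25 lower, and 65 without month 4 library 5, 41 higher and 24 lower. The 28 genes in both sets were 52.8% of the first and 43.1% of the second. Limma-voom called 0 in both, with 1489 and 1516 genes at an unadjusted p under 0.05. The genes below are therefore described by their values, and none is called changed by the main test.

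The genes of smallest p without month 4 library 5 were the 8 higher and the 8 lower ones that follow. None passed the test, and each had an adjusted p of 0.371 by edgeR. Their choice by p makes them the extremes of this contrast, so their values are a description. Among these 16 genes, the ages did not overlap for 6 without month 4 library 5 (1.32% of all genes). With all 10 libraries they did not overlap for 1, SLC16A11 (0.564% of all genes).

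SLC16A11, a member of the monocarboxylate transporter family, read 4.22, 6.05, 5.05, 6.47 and 5.65 CPM at month 4. At month 6 it read 12.8, 22.1, 15.6, 7.74 and 9.70 CPM. All 5 month 6 libraries were above all 5 of month 4, with a log2 fold change of 1.31 ± 0.27 (SE; edgeR adjusted p = 0.368). The value was 1.32 ± 0.29 without month 4 library 5. It is the only one of the 16 whose ages did not overlap with every library kept.

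CEMIP, which takes part in breaking down hyaluronan, read 1.91, 5.80, 1.82, 2.52 and 2.69 CPM at month 4. At month 6 it read 38.7, 60.7, 19.4, 6.67 and 3.63 CPM. Libraries 1 to 3 of month 6 were well above month 4, while library 5 lay within its range. The log2 fold change was 3.13 ± 0.66 with all libraries and 3.10 ± 0.74 without month 4 library 5 (SE; edgeR adjusted p = 0.368 and 0.371). CKMT1A, a mitochondrial creatine kinase with a near-identical copy in human, so that its count is uncertain, read 0.742, 1.92, 1.34, 0.599 and 1.29 CPM at month 4. Its month 6 values were 41.6, 54.8, 7.06, 1.41 and 1.2 CPM. Again month 6 libraries 1 to 3 were high and libraries 4 and 5 lay at the month 4 level. The log2 fold change was 4.17 ± 0.89 with all libraries and 4.2 ± 1.01 without month 4 library 5 (SE; edgeR adjusted p = 0.368 and 0.371).

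IGFBP2, a binding protein of insulin-like growth factors, followed the same split. It read 2.34, 4.06, 4.24, 1.68 and 35.8 CPM at month 4, and 98.4, 224, 76.5, 8.57 and 8.07 at month 6. Month 4 library 5 was the one month 4 value above the lowest month 6 value. The log2 fold change was 3.11 ± 1.06 with all libraries and 4.75 ± 1.09 without that library (SE; edgeR adjusted p = 0.368 and 0.371).

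The other 4 of the higher genes were each highest at month 4 in library 5. MGP, matrix Gla protein, an inhibitor of calcification, read 191, 332, 198, 257 and 1859 CPM at month 4 and 974, 1605, 893, 530 and 321 at month 6. Its log2 fold change was 0.61 ± 0.55 with all libraries and 1.82 ± 0.38 without month 4 library 5. MMP28, a secreted metalloproteinase, read 2.40, 3.02, 2.56, 3.56 and 60.2 CPM at month 4 and 9.78, 14.5, 5.16, 6.49 and 6.19 at month 6. Its log2 fold change was -0.77 ± 0.71 with all libraries and 1.55 ± 0.29 without that one, so its direction turned on a single library. For C5H12orf75 the values were 6.36, 7.47, 7.69, 6.87 and 47.9 CPM against 13.2, 38.9, 19, 9.17 and 11.9, and the log2 fold change was 0.27 ± 0.50 and 1.38 ± 0.32. LYVE1, a hyaluronan receptor of lymphatic vessels, is the last of the 8 and is given with its group below. With all libraries DESeq2 called SLC16A11, CEMIP and CKMT1A (adjusted p = 0.00518, 0.000594 and 0.000124), and without month 4 library 5 it called all 8.

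The 8 lower genes differed in which month 4 libraries were high. BNC2, a zinc finger transcription factor of mesenchymal cells, read 1671, 402, 855, 529 and 458 CPM at month 4 and 313, 281, 276, 462 and 337 at month 6. RBPMS, an RNA-binding protein of muscle cells, read 670, 141, 301, 188 and 236 CPM and then 92.1, 94.2, 77.6, 159 and 161. TTC28, a tetratricopeptide repeat protein, read 313, 91.4, 230, 101 and 169 CPM and then 55.5, 52.6, 72.6, 103 and 102. In these 3 genes month 4 libraries 1 and 3 were highest, and they are also the libraries of lowest total count, a link that was not tested. Without month 4 library 1 the log2 fold change was -0.75 for BNC2 and -0.89 for RBPMS.

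MEF2C, a transcription factor of muscle and vessel cells, read 155, 40.2, 116, 51.3 and 138 CPM at month 4 and 27.7, 29.8, 31.2, 46.9 and 56.4 at month 6. ABLIM1, an actin-binding LIM protein, read 30.2, 13.3, 60.4, 54.4 and 49.7 CPM and then 10.4, 15.0, 15.5, 16 and 20.4. MAGI2, a junction scaffold, read 53.6, 13.0, 48.6, 20.7 and 19.8 CPM and then 9.06, 10.2, 16.8, 13.7 and 19.3. In MEF2C, ABLIM1 and MAGI2 month 4 library 2 was the lowest of its age and lay within the month 6 range. SIMC1, a SUMO-interacting protein, read 27.2, 9.91, 16.8, 12.1 and 10.9 CPM at month 4 and 5.90, 7.66, 8.58, 8.87 and 11.3 at month 6. RNF44, a RING finger protein, read 10.9, 5.95, 7.16, 7.49 and 4.46 CPM and then 2.95, 2.88, 3.97, 4.45 and 4.62, and without month 4 library 5 its ages did not overlap. With all libraries the log2 fold changes of the 8 ran from -0.86 ± 0.25 for SIMC1 to -1.43 ± 0.34 for ABLIM1 (SE; edgeR adjusted p = 0.368 for each), and without month 4 library 5 from -0.96 ± 0.25 for SIMC1 to -1.47 ± 0.38 for RBPMS. DESeq2 called TTC28, MEF2C, RBPMS and ABLIM1 among them with all libraries, with adjusted p between 0.0125 and 0.0435. In the comparison without month 4 library 5 it called RNF44, TTC28, BNC2, MEF2C and RBPMS, with adjusted p between 0.0146 and 0.0437.

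**Figure D2:**
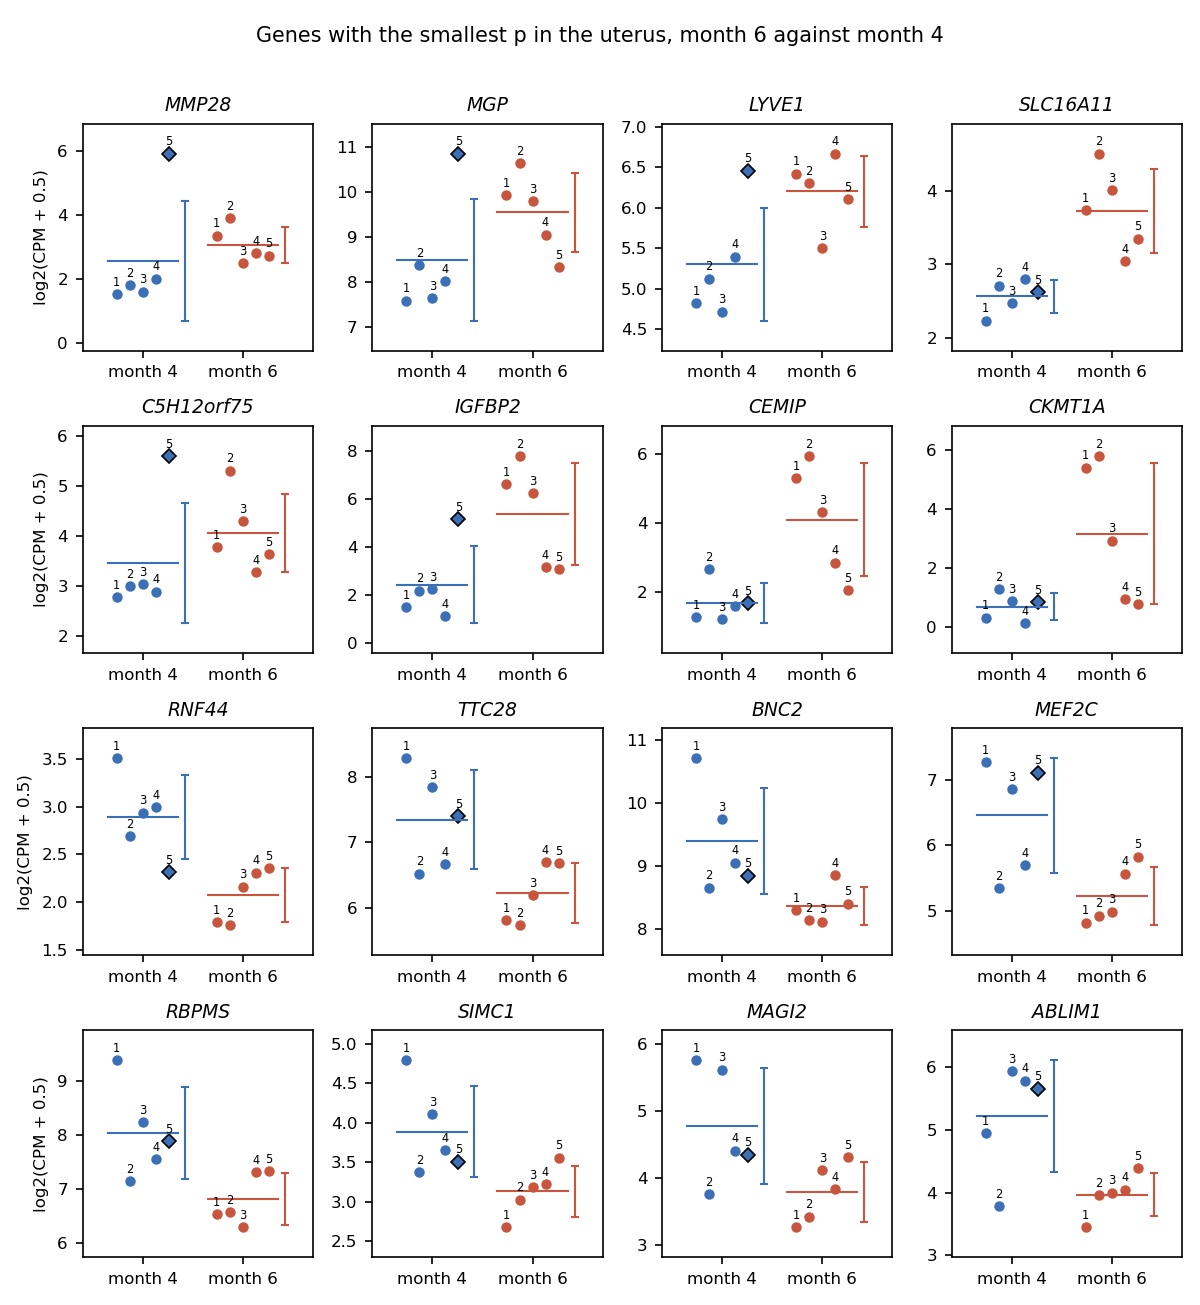
Level of the 16 genes of smallest p as log2(CPM + 0.5) in each library of month 4 (blue) and month 6 (red), with the library number above each point and a diamond for month 4 library 5. Horizontal lines are the mean of the 5 log2 values and bars beside them the SD. The SLC16A11 panel shows no overlap between the ages, and in the lower genes BNC2, RBPMS and TTC28 month 4 libraries 1 and 3 are highest.

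Genes were then read by group, with the members drawn up with earlier results of these data known. Of 637 tested members of 35 lists, 0 passed the edgeR test with all libraries and 0 of 639 without month 4 library 5, against 0% of all genes. Each list is described by its counts and median, to be read against medians of -0.00284 and 0.0321 over all genes tested with and without that library. Counts at an unadjusted p under 0.05 are to be read against 4.99% of all genes higher and 5.8% lower with all libraries. Without that library these shares were 5.61% and 5.12%.

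Products of the ruminant uterine glands had the highest median of the 35 lists. Of 16 tested members 13 had a log2 fold change above 0, the median was 1.9, and 8 had an unadjusted p under 0.05, all higher at month 6 (4.99% of all genes). Without month 4 library 5 the median was 1.87, with 10 of 16 at p under 0.05, all higher (5.61% of all genes). Much of this came from month 6 library 2, in which 10 of the 16 were at their highest. The mean log2(CPM + 0.5) of the list was 3.99, 6.53, 3.25, 2.80 and 2.84 at month 6 and 2.58 to 3.09 at month 4.

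SERPINA14, the uterine serpin that is the main secreted protein of ruminant glands under progesterone, read 0.314, 0.451, 42.8, 4.59 and 0.485 CPM at month 4. At month 6 it read 38.7, 6152, 1.87, 1.37 and 21.2 CPM. The ages overlapped, since month 4 library 3 was above 4 of the month 6 libraries. The log2 fold change was 7.0 ± 2.17 with all libraries and 6.69 ± 2.35 without month 4 library 5 (SE; edgeR adjusted p = 0.368 and 0.374). It was 0.70 without month 6 library 2, so its size rested on that library. In the younger uterus its mean was 0.0645 ± 0.0844 CPM at day 1 and 1.22 ± 1.41 at month 2 (SD, n = 5 each).

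CXCL14, a chemokine of epithelia, read 2.03, 1.80, 3.57, 4.57 and 49.6 CPM at month 4 and 67.2, 2762, 10.6, 6.29 and 5.08 at month 6. Without month 4 library 5 all month 6 libraries were above month 4, a state shared by 0.687% of all genes. The log2 fold change was then 7.57 ± 1.85 (SE; edgeR adjusted p = 0.371), and 5.53 ± 1.65 with that library. Leaving out month 6 library 2 gave 0.86. GRP, gastrin-releasing peptide, and LGALS15, a galectin of the ruminant endometrium, were picked out after their values were seen. GRP read 163, 128, 201, 124 and 0.922 CPM at month 4 and 251, 5945, 91.8, 200 and 106 at month 6. It was already at this level in most month 4 libraries, after means of 0.111 ± 0.153 CPM at day 1 and 15.8 ± 10.7 at month 2 (SD, n = 5 each). The log2 fold change of GRP was 3.42 ± 1.2 with all libraries, 3.10 ± 1.12 without month 4 library 5 and 0.40 without month 6 library 2. LGALS15 read 0 in month 4 libraries 1 to 4 and 1.87 CPM in library 5, and 21.4, 263, 0.547, 0 and 0 at month 6. Its count is uncertain because close copies of this galectin exist in ruminants.

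Month 6 library 2 was also far above the rest in PTGS2, IGFBP1 and IL1R2. PTGS2, the inducible enzyme of prostaglandin synthesis, read 10.8, 4.60, 7.5, 9.39 and 47.7 CPM at month 4 and 84.6, 1604, 4.59, 11.3 and 7.10 at month 6. Its log2 fold change was 4.42 ± 1.26 with all libraries and 5.41 ± 1.41 without month 4 library 5 (SE; edgeR adjusted p = 0.368 and 0.371), and 0.75 without month 6 library 2. DESeq2 called PTGS2 in both comparisons (adjusted p = 0.0268 and 0.00132). IGFBP1, a binding protein of insulin-like growth factors made by the ruminant endometrial epithelium, was between 0.0751 and 2.01 CPM at month 4. At month 6 it read 0.516, 238, 0.23, 0.516 and 0.103 CPM, and without library 2 its log2 fold change was -0.87 in place of 6.26 ± 1.87. IL1R2, a decoy receptor of interleukin-1 picked out after its values were seen, read 289 CPM in that library and at most 0.671 in the other 9.

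MMP1, interstitial collagenase, was also picked out after its values were seen. It had no count in any month 4 library and read 237, 309, 0.194, 0 and 0 CPM at month 6. Against a floor of 3 counts over the whole month 4 group the month 6 group was at least 8489-fold higher, a bound set by month 6 libraries 1 and 2 alone. CEMIP and CKMT1A were also highest in these libraries.

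**Figure D3:**
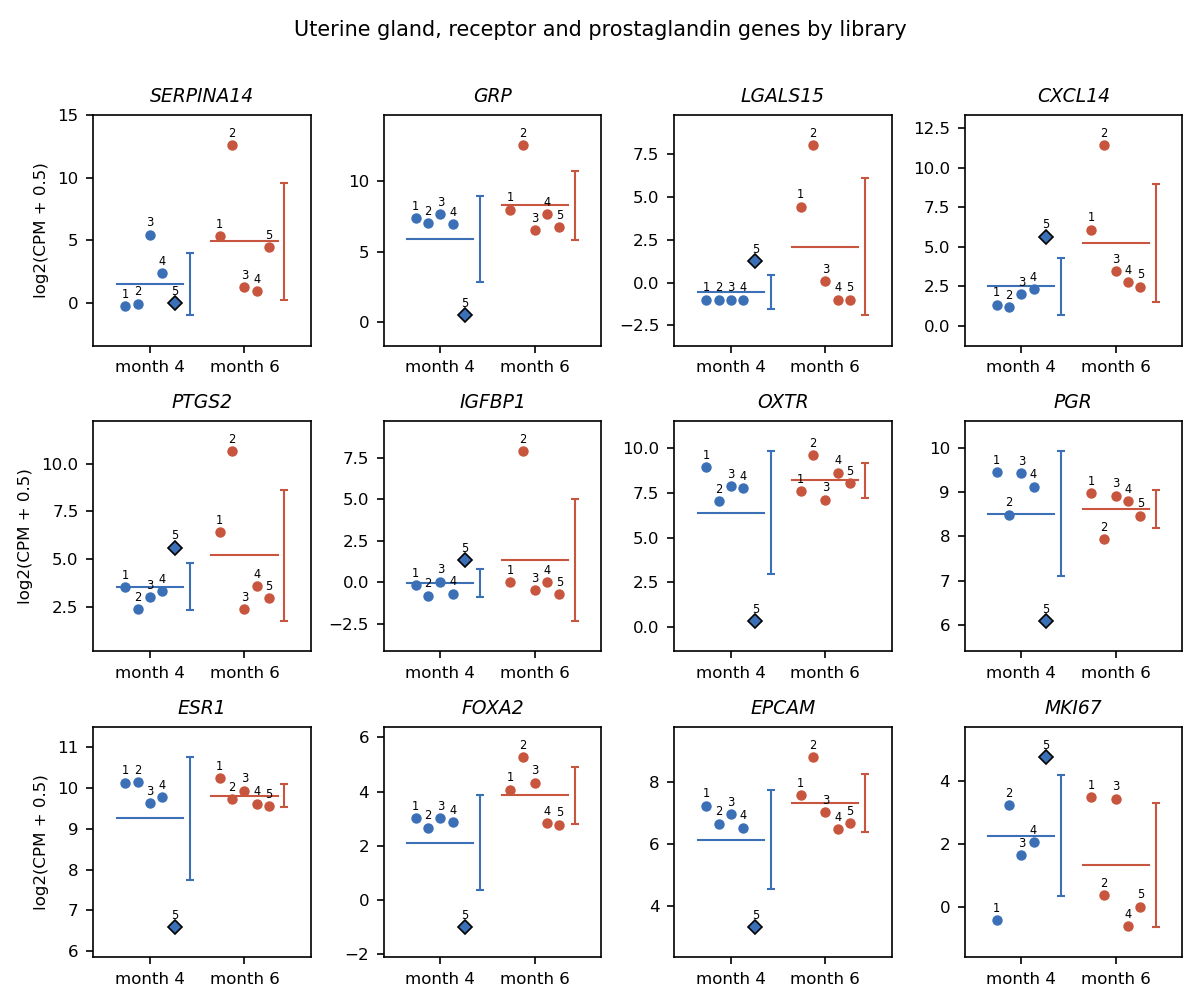
Level of 12 uterine genes as log2(CPM + 0.5) in each library of month 4 (blue) and month 6 (red), with the library number above each point and a diamond for month 4 library 5. Horizontal lines are the mean of the 5 log2 values and bars beside them the SD. SERPINA14, GRP, CXCL14, PTGS2 and IGFBP1 are highest in month 6 library 2, and OXTR, PGR, ESR1, FOXA2 and EPCAM are lowest in month 4 library 5.

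Of 18 measured oxytocin and prostaglandin genes, 5 were highest in month 6 library 2 and 7 in month 4 library 5. In this list 9 of 17 tested members had a log2 fold change above 0, with a median of 0.0295. With all libraries 3 members had an unadjusted p under 0.05 as higher and 3 as lower, and without month 4 library 5, 3 as higher and 0 as lower, with a median of 0.413. HPGD, which breaks prostaglandins down, read 18, 30.8, 14.3, 25.6 and 29.6 CPM at month 4 and 52.8, 203, 39.1, 24.5 and 29.2 at month 6. Its log2 fold change was 1.56 ± 0.46 with all libraries and 1.65 ± 0.51 without month 4 library 5 (SE; edgeR adjusted p = 0.368 and 0.371), and 0.62 without month 6 library 2. Month 6 libraries 4 and 5 lay within the month 4 range. OXTR, the oxytocin receptor, read 489, 129, 232, 215 and 0.776 CPM at month 4 and 192, 782, 139, 395 and 265 at month 6. The ages overlapped widely, with a log2 fold change of 0.73 ± 1.14 with all libraries and 0.41 ± 1.02 without library 5.

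The main steroid receptors overlapped between the ages. ESR1 read 1122, 1136, 792, 874 and 96.4 CPM at month 4 and 1214, 851, 980, 787 and 751 at month 6. The fitted log2 fold change was 0.19 ± 0.44 with all libraries and -0.10 ± 0.29 without library 5. PGR, the progesterone receptor, read 698, 359, 685, 555 and 67.8 CPM at month 4 and 503, 245, 482, 445 and 353 at month 6, with log2 fold changes of -0.22 ± 0.40 and -0.50 ± 0.25. The means at month 2 were 701 ± 253 CPM for ESR1 and 360 ± 68.0 for PGR (SD, n = 5).

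Among 19 tested steroid receptors and targets, 10 had a log2 fold change above 0, with a median of 0.153, and 12 without library 5, with a median of 0.0302. At an unadjusted p under 0.05, 1 was higher and 2 were lower with all libraries, and 2 and 1 without library 5. PGRMC1, a membrane-associated progesterone receptor component, read 117, 170, 133, 148 and 147 CPM at month 4 and 228, 239, 189, 193 and 184 at month 6. Its ages did not overlap in either comparison, a state shared by 0.298% of genes as higher with all libraries, and the log2 fold change was 0.53 ± 0.18 with all libraries and 0.54 ± 0.20 without library 5 (SE; edgeR adjusted p = 0.369 and 0.383). NR3C1, the glucocorticoid receptor, read 216, 117, 201, 208 and 303 CPM and then 70.3, 69.2, 129, 182 and 196. Month 6 libraries 1 and 2 were lowest, and the log2 fold change was -0.69 ± 0.29 with all libraries and -0.52 ± 0.29 without month 4 library 5 (unadjusted p = 0.0259 and 0.0886, edgeR).

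Epithelial and gland markers had a median of 0.732, with 18 of 20 above 0, and of 0.464 without month 4 library 5, again with 18 of 20. In both comparisons 4 members had an unadjusted p under 0.05, all higher (4.99% and 5.61% of all genes). Of the 20 markers, 10 were at their highest in month 6 library 2. CLDN4, a tight junction protein, read 9.33, 7.47, 6.47, 7.57 and 3.61 CPM at month 4 and 9.15, 92.7, 14.1, 6.05 and 10 at month 6, with log2 fold changes of 1.94 ± 0.57 with all libraries, 1.78 ± 0.61 without month 4 library 5 and 0.51 without month 6 library 2. SOX17, a transcription factor of uterine glands and of arteries, read 20.5, 40.4, 24.7, 20.7 and 9.92 CPM and then 50.3, 50.8, 50.7, 28.7 and 27.5, with log2 fold changes of 0.84 ± 0.28 and 0.65 ± 0.24 with and without month 4 library 5 (SE; edgeR adjusted p = 0.368 and 0.383). FOXA2 read 16.3, 38.2, 19.6, 6.61 and 6.34 CPM at month 6, so libraries 1 to 3 were above every month 4 library and libraries 4 and 5 were level with them. EPCAM read 189, 444, 129, 88.7 and 101 CPM at month 6, with a log2 fold change of 1.01 ± 0.51 with all libraries, 0.72 ± 0.39 without month 4 library 5 and 0.43 without month 6 library 2.

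Stromal and Mullerian duct patterning genes had medians near 0, at -0.00934 with all libraries and -0.0805 without month 4 library 5, with 9 and 8 of 19 above 0. At an unadjusted p under 0.05, 1 was higher and 1 lower with all libraries, and 1 and 2 without library 5. TWIST2, a transcription factor of mesenchyme, read 6.13, 13.7, 6.49, 5.83 and 8.64 CPM at month 4 and 16.2, 22.7, 12.8, 10.2 and 8.42 at month 6, with log2 fold changes of 0.78 ± 0.34 and 0.80 ± 0.37. FOXL2, a transcription factor of endometrial stroma in ruminants, read 11.8, 1.26, 0.671, 5.47 and 0 CPM and then at most 1.36. This gave a log2 fold change of -2.10 ± 0.96 with all libraries, -2.42 ± 0.75 without library 5 (SE; edgeR adjusted p = 0.443 and 0.371) and -1.05 without month 4 library 1, with month 4 libraries 1 and 4 setting it apart. HOXA10 was between 30.2 and 73.9 CPM at month 6, with a log2 fold change of -0.04 ± 0.53 and, without library 5, -0.34 ± 0.36.

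Muscle, collagen and elastic fibre genes were among the groups whose values moved with month 4 library 5. The smooth muscle list had a median of -0.628 with 4 of 19 members at an unadjusted p under 0.05, all lower, and without that library a median of -0.076 with 0. The collagen and matrix list had a median of -0.894 with 5 of 21 lower and 0 higher, and without it a median of 0.402 with 0 either way. The elastic fibre list had a median of -0.741, with all 18 members below 0 and 6 at p under 0.05, and without it a median of 0.0241 with 0. The share of all genes lower at that p was 5.8%, and the shares in these lists rested on 1 library.

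MYH11, the smooth muscle myosin, read 1375, 1436, 1212, 1006 and 3491 CPM at month 4 and 1423, 719, 817, 1189 and 977 at month 6. Without library 5 its log2 fold change was -0.29 ± 0.33, and with it -0.73 ± 0.38. KCNMB1, a subunit of a calcium-activated potassium channel of smooth muscle, read 98.1, 110, 110, 88.3 and 277 CPM and then 51.7 to 98.5, with log2 fold changes of -0.97 ± 0.37 and -0.54 ± 0.33 with and without library 5. SYNM, an intermediate filament protein, was at 63.7 to 79.3 CPM in month 4 libraries 1 to 4, at 216 in library 5 and at 41.4 to 73.5 at month 6, with log2 fold changes of -0.70 ± 0.32 and -0.24 ± 0.25.

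COL1A1, a chain of the main fibrillar collagen, read 190, 963, 389, 227 and 8882 CPM at month 4 and 1448, 812, 1350, 132 and 385 at month 6. The fitted log2 fold change was -1.37 ± 0.87 with all libraries and 0.90 ± 0.60 without library 5. LOX, which cross-links collagen and elastin, was at 41.7 to 57.7 CPM in month 4 libraries 1 to 4, at 1656 in library 5 and at 44.6 to 88.7 at month 6. BGN, the proteoglycan biglycan, was at 17.9 to 35.6, at 690 and at 16 to 39.2 CPM in the same order. LTBP2, a microfibril-associated protein, was at 3.44 to 13.4, at 247 and at 4.58 to 8.97 CPM. Without library 5 the log2 fold changes of LOX, BGN and LTBP2 were 0.27 ± 0.17, 0.12 ± 0.30 and 0.11 ± 0.39, and that of ELN was -0.26 ± 0.30 in place of -5.83 ± 1.40.

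Lymphatic endothelial genes read higher at month 6 in every tested member once month 4 library 5 was left out. The median was -0.204 with all libraries, with 3 of 8 above 0, and 0.712 without it, with 8 of 8 above 0 and 3 at an unadjusted p under 0.05 (5.61% of all genes). For 3 of the 8 the ages then did not overlap, against 0.687% of all genes. LYVE1 read 27.8, 34.4, 25.8, 41.6 and 87.3 CPM at month 4 and 85.1, 78.6, 44.7, 101 and 68.5 at month 6, with a log2 fold change of 0.80 ± 0.31 with all libraries and 1.22 ± 0.26 without library 5 (SE; edgeR adjusted p = 0.385 and 0.371). PROX1, the transcription factor that defines lymphatic endothelium, and MMRN1, a secreted protein of these vessels, were picked out after their values were seen. PROX1 read 12.6, 7.32, 12.6, 13.1 and 76.1 CPM and then 13.9 to 18.8, and MMRN1 read 35.2, 54.6, 35.6, 54.4 and 215 CPM and then 63.4 to 86.3. Their log2 fold changes were -0.55 ± 0.48 and -0.06 ± 0.47 with all libraries and 0.54 ± 0.28 and 0.75 ± 0.36 without library 5.

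CCL21, the chemokine that draws lymphocytes to lymphatic vessels, read 15.8, 47.1, 18.8, 36.2 and 43.8 CPM at month 4 and 86.8, 62.9, 42.8, 92.6 and 26.5 at month 6. This gave a log2 fold change of 0.95 ± 0.39 with all libraries and 1.08 ± 0.42 without library 5 (SE; edgeR adjusted p = 0.399 and 0.384). Markers of blood endothelium had medians of -0.328 and 0.278 with and without library 5, with 4 and 17 of 18 above 0, and 15 of the 18 were highest in library 5. Arterial wall genes had medians of -0.748 and 0.148, with 4 of 17 at p under 0.05 as lower and 1 as higher with it, and 0 and 3 without it.

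**Figure D4:**
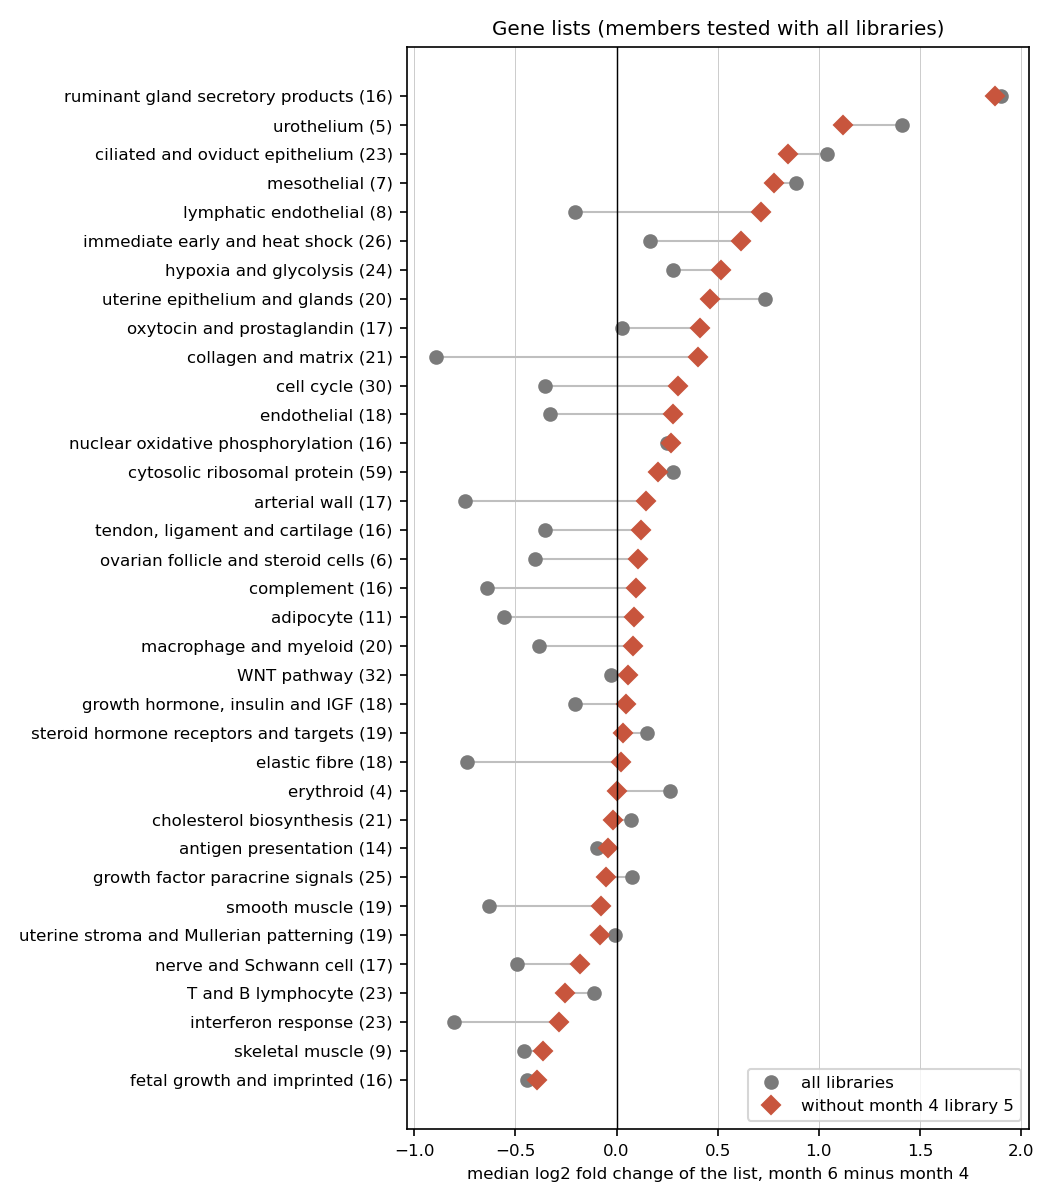
Median log2 fold change, month 6 minus month 4, of each of the 35 gene lists (tested members in brackets) with all 10 libraries (grey circles) and without month 4 library 5 (red diamonds). Gland secretory products stay near 1.9 in both, while the collagen list moves from -0.894 to 0.402 and the elastic fibre list from -0.741 to 0.0241.

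Growth signals gave small medians. The growth hormone, insulin and IGF list had medians of -0.204 and 0.0467 with and without month 4 library 5, with 2 higher and 3 lower of 18 at an unadjusted p under 0.05, and 2 and 2 without it. IGF1, insulin-like growth factor 1, read 183, 455, 348, 399 and 1198 CPM at month 4 and 1100, 636, 666, 264 and 251 at month 6, with log2 fold changes of 0.17 ± 0.50 and 0.75 ± 0.47. IGFALS, the acid-labile subunit that carries IGF complexes, read 5.31, 5.45, 4.17, 4.99 and 10.9 CPM and then 2.29, 2.63, 3.02, 4.33 and 3.14. Only library 4 of month 6 reached the month 4 range, and the log2 fold change was -1.0 ± 0.31 with all libraries and -0.69 ± 0.28 without library 5 (SE; edgeR adjusted p = 0.368 and 0.403).

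Fetal growth and imprinted genes had medians of -0.444 and -0.395, with 14 and 13 of 16 below 0. With all libraries 2 were lower at p under 0.05 and 0 higher, and without library 5, 1 and 1. IGF2, the fetal insulin-like growth factor, read 28.1, 25.2, 28.0, 17.8 and 50.8 CPM at month 4 and 9.70, 11.6, 11.0, 27.3 and 23.2 at month 6. Month 6 libraries 1 to 3 were below every month 4 library, and the log2 fold change was -0.86 ± 0.34 with all libraries and -0.58 ± 0.34 without library 5 (SE; edgeR adjusted p = 0.395 and 0.545). The means at day 1 and month 2 were 47.8 ± 18.3 and 39.3 ± 11.9 CPM (SD, n = 5 each). MEST, an imprinted gene of fetal mesoderm, was at 7.51 to 12.4 CPM in month 4 libraries 1 to 4, at 68.3 in library 5 and at 3.97 to 9.04 at month 6, with log2 fold changes of -1.58 ± 0.52 and -0.49 ± 0.34.

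The WNT pathway list had medians of -0.0292 and 0.0553, with 3 higher and 3 lower of 32 at p under 0.05, and 3 and 0 without library 5. WNT4, a ligand of endometrial stroma and gland formation, read 3.99, 1.48, 1.60, 1.44 and 1.65 CPM at month 4 and 3.19, 42.3, 2.00, 7.30 and 3.22 at month 6. The fitted log2 fold change was 2.51 ± 0.77 with all libraries, 2.45 ± 0.85 without month 4 library 5 (SE; edgeR adjusted p = 0.368 and 0.373) and 0.95 without month 6 library 2. SFRP4, a secreted WNT antagonist, was at 0.685 to 2.72 CPM in month 4 libraries 1 to 4, at 93.6 in library 5 and at 1.33 to 5.33 at month 6, with log2 fold changes of -2.98 ± 1.06 and 0.74 ± 0.51. Paracrine growth factors and receptors had medians of 0.0773 and -0.0508. At p under 0.05, 4 and 5 of 25 were higher (4.99% and 5.61% of all genes), and 0 lower in both. FGF9, a ligand of the fibroblast growth factor family, read 13.6, 9.71, 8.89, 5.49 and 2.91 CPM and then 9.94, 65.3, 20.7, 7.38 and 13.7, and EGFR, the epidermal growth factor receptor, read 121, 82.0, 89.5, 64.5 and 90.8 and then 174, 296, 94.1, 126 and 101. Their log2 fold changes were 1.53 ± 0.49 and 0.82 ± 0.31 with all libraries (SE; edgeR adjusted p = 0.368 and 0.382) and 1.31 ± 0.49 and 0.82 ± 0.34 without month 4 library 5. They were 0.67 and 0.47 without month 6 library 2.

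Cell cycle genes spread widely among the libraries of each age. The mean log2(CPM + 0.5) of the list was 1.57, 3.74, 2.19, 2.46 and 4.45 at month 4 and 3.97, 1.75, 3.70, 1.57 and 1.97 at month 6. MKI67, the Ki-67 marker of dividing cells, read 0.257, 8.86, 2.61, 3.67 and 26.3 CPM at month 4 and 10.6, 0.802, 10.3, 0.159 and 0.516 at month 6. So libraries 1 and 3 of month 6 were high and the other three low, and the mean was 28.7 ± 14.4 CPM at day 1 (SD, n = 5). The list medians were -0.352 and 0.306 with and without library 5, with 6 and 25 of 30 above 0, and 1 lower at p under 0.05 in both. That gene was PLK1, a mitotic kinase, at 10.1, 6.33, 5.17, 5.21 and 11.5 CPM and then 3.99 to 5.42. CCNA2, a cyclin of DNA replication, was at 6.91 to 31.4 CPM and then 3.32 to 15.2.

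Most interferon response genes had log2 fold changes below 0, and none passed the test. With all libraries 22 of 23 were below 0, the median was -0.803, and 12 had an unadjusted p under 0.05 as lower and 0 as higher (5.8% and 4.99% of all genes). Without month 4 library 5, 19 of 23 were below 0, the median was -0.282 and none had p under 0.05, and 20 of the 23 were at their highest in that library. IFIH1, a sensor of double-stranded RNA, read 47.5, 34.9, 44.0, 43.9 and 91.5 CPM at month 4 and 25.3, 31.2, 34.1, 29.2 and 31.8 at month 6. Its ages did not overlap in either comparison (0.266% and 0.629% of genes as lower), with log2 fold changes of -0.79 ± 0.27 and -0.49 ± 0.24 (SE; edgeR adjusted p = 0.369 and 0.476). DDX58, the sensor RIG-I, read 25.9, 20.1, 33.0, 33.5 and 318 CPM and then 38.2, 18, 32.7, 10.5 and 16.1, with log2 fold changes of -1.90 ± 0.67 and -0.28 ± 0.41.

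Lymphocyte genes had medians of -0.112 and -0.253, with 1 of 23 at p under 0.05 as higher and 0 as lower in both. That was JCHAIN, the joining chain of secreted antibodies, at 12.4, 13.7, 23.3, 34.7 and 36.6 CPM and then 17.5, 14.5, 601, 38.8 and 21.4, so month 6 library 3 alone was high, and without it the log2 fold change was -0.07 in place of 2.52 ± 0.99. CD4, the helper T cell co-receptor, was at 0.713 to 2.92 CPM and then 0.0955 to 1.53. The macrophage list had medians of -0.381 and 0.081, antigen presentation -0.0962 and -0.0439, and complement -0.64 and 0.0948. At p under 0.05 the macrophage list held 0 with all libraries and 1 higher without library 5, antigen presentation 1 lower in both, and complement 4 and 1 lower.

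Month 6 library 3 also stood apart in genes of motile cilia. All 23 measured genes of the ciliated epithelium list were at their highest in that library. Their sum was 857 CPM there, 44.1 in the lowest month 6 library and 61.5 to 228 in month 4 libraries 1 to 4. The medians were 1.04 and 0.849, with 23 of 23 above 0 in both comparisons and 0 at an unadjusted p under 0.05. FOXJ1, the master transcription factor of motile cilia, picked out after its values were seen, read 4.05, 18.4, 8.38, 2.30 and 0.582 CPM at month 4 and 4.90, 2.23, 65.7, 1.49 and 0.454 at month 6. RSPH1, a radial spoke protein, was at 6.25 CPM in that library and at most 1.2 in the other 9, and TEKT2, a tektin of the axoneme, at 8.19 and at most 3.36. Without month 6 library 3 their log2 fold changes were 0.07 and 0.32, in place of 1.39 ± 0.99 and 1.17 ± 0.89. Without month 6 library 3 the list median was -1.39 with the other 9 libraries, so its direction rested on that library.

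Immediate early and heat shock genes had medians of 0.164 and 0.616, with 1 and 4 of 26 higher at p under 0.05 and 0 lower. Of the 26, 14 were highest in month 6 library 2. Without month 6 library 2 the median was -0.30. NR4A3, an immediate early nuclear receptor, read 1.2, 2.27, 1.44, 0.719 and 10.2 CPM and then 8.69, 139, 0.724, 1.07 and 0.702, and JUN, a subunit of AP-1, was at 70.0 to 202 and then 32.4 to 97.5. Hypoxia and glycolysis genes had medians of 0.278 and 0.517. In both comparisons 5 of 24 were higher at p under 0.05 (4.99% and 5.61% of all genes) and 0 lower. PKM, the glycolytic pyruvate kinase, read 92.0, 177, 87.3, 96.4 and 106 CPM and then 327, 207, 156, 119 and 97.9, with a log2 fold change of 0.70 ± 0.27 with all libraries, 0.68 ± 0.30 without month 4 library 5 (SE; edgeR adjusted p = 0.386 and 0.439) and 0.37 without month 6 library 1. Of the 24 genes 9 were highest in month 6 library 2 and 4 in month 6 library 1. SLC2A1, a glucose transporter, was at 281 CPM in month 6 library 2 and at most 31.3 in the other 9, and without it the log2 fold change was -0.27 in place of 1.59 ± 0.63.

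Cytosolic ribosomal protein genes leaned one way by a small amount, with 56 of 59 above 0, medians of 0.279 and 0.207, and 0 at p under 0.05. Their list mean ran from 9.22 to 10.46 at month 4 and from 9.59 to 10.43 at month 6, so the ages overlapped. Genes of oxidative phosphorylation had medians of 0.247 and 0.269, with 16 of 16 above 0 in both. At p under 0.05, 0 and 2 were higher, and 9 of the 16 were highest in month 6 library 1. Only 16 of the 36 entries of this list were measured. Its mean ran from 5.18 to 6.39 at month 4 and from 5.84 to 6.45 at month 6, so the ages overlapped. Cholesterol biosynthesis had medians of 0.0696 and -0.0193, with 1 of 21 higher at p under 0.05 in both.

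Markers of tissues near or around the uterus were read in the same way, all at medians with and without month 4 library 5. Mesothelial markers had 0.886 and 0.778, urothelial markers 1.41 and 1.12, adipocyte markers -0.554 and 0.0848, and nerve and Schwann cell markers -0.494 and -0.182. Tendon, ligament and cartilage markers had -0.355 and 0.122, skeletal muscle markers -0.457 and -0.361, erythroid markers 0.264 and 0, and ovarian follicle and steroid cell markers -0.403 and 0.107. The summed ovarian markers were at 5.24 to 15.2 CPM at month 4 without library 5 and at 3.81 to 7.98 at month 6. They include FOXL2, given above as a gene of endometrial stroma. It read 11.8 CPM in month 4 library 1 and 5.47 in month 4 library 4, so the sum is not a measure of ovarian tissue alone. Some of these lists are small, with 7 mesothelial, 5 urothelial, 6 ovarian and 4 erythroid members tested with all libraries. The mean log2(CPM + 0.5) of the urothelial list ran from 0.02 to 1.79 at month 4 and from 0.89 to 2.40 at month 6, so the ages overlapped. The part of these tissues in the results above was not tested.

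**Figure D5:**
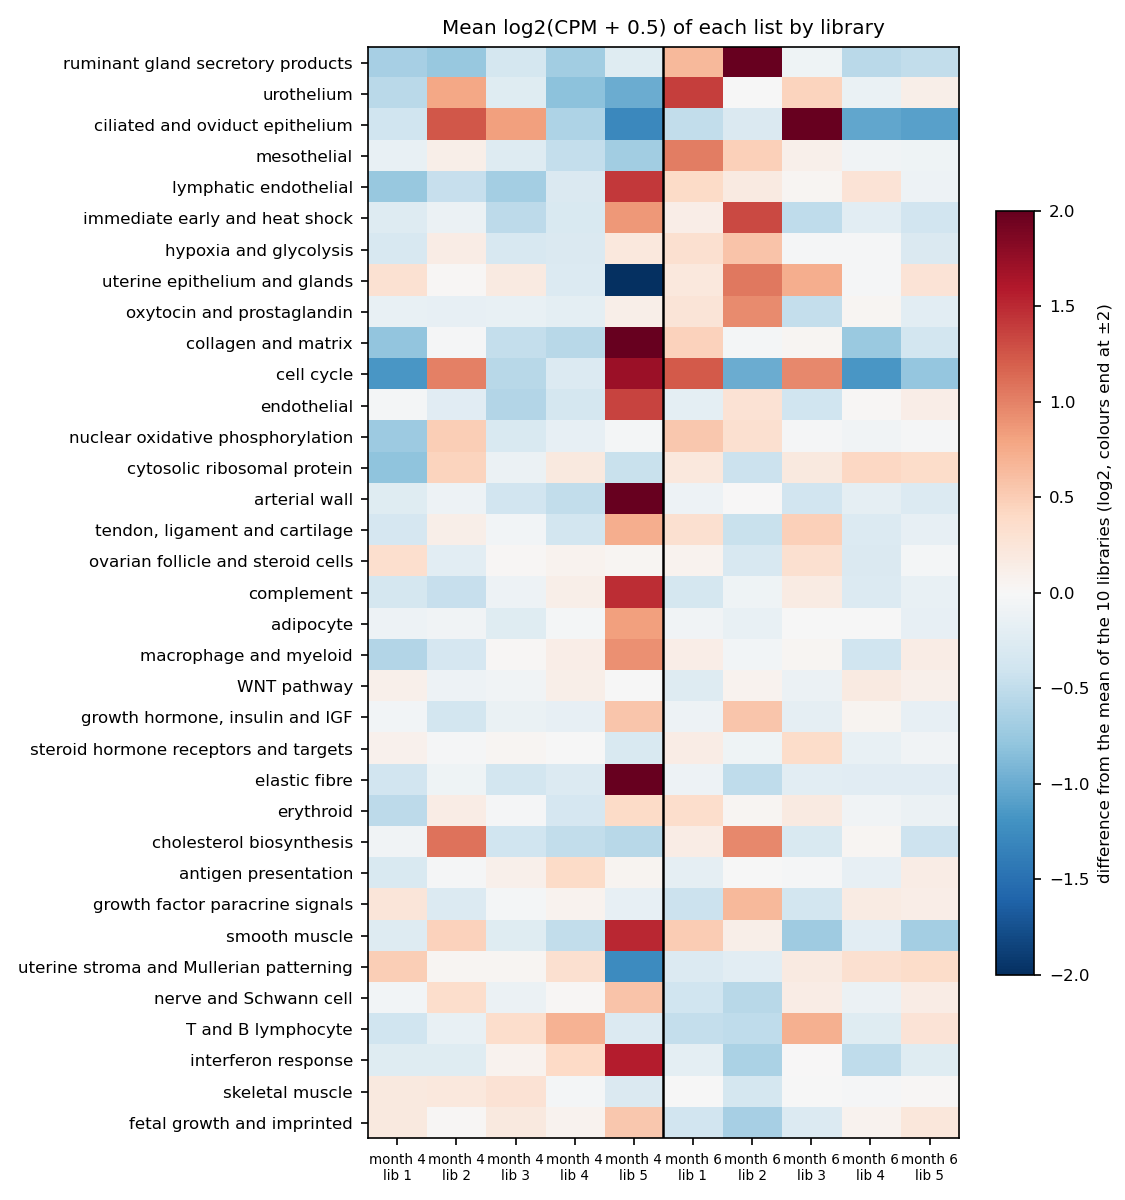
Mean log2(CPM + 0.5) of each gene list in each library, as the difference from the mean of the 10 libraries (colour, log2 units, red higher and blue lower, ending at 2 either way), with month 4 on the left and month 6 on the right of the line. Month 4 library 5 is high in the collagen, elastic fibre and arterial wall lists and low in the epithelial list, month 6 library 2 is high in gland products, and month 6 library 3 is high in cilia genes.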

How the data were processed

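The analysis started from the authors' deposited table of raw whole-number counts per gene for 40 libraries, 5 per tissue and age, not normalized. The tools are named, per the submitters' processing notes, as RSEM 1.3.0, StringTie 1.3.3b, HISAT2 and fastp 0.23.1, without their roles. For genome build, annotation and strand, the sources used here give nothing, and counts of overlapping genes and close copies are uncertain. The table held 30049 genes. Of these, 28910 had NCBI gene numbers, all matched to RefSeq symbols (goat assembly ARS1.2, names only), and 1139 were loci assembled from reads, with 1.16% to 5.47% of counts. Labels speak of individuals, so libraries were taken as separate animals.

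All 20 uterus libraries were fitted together with edgeR 4.0.16 (quasi-likelihood, TMM scaling, filterByExpr) in R 4.3.3, so the 4 ages shared the estimate of spread, and month 6 was set against month 4. A call needed a log2 fold change of 1 or more in size together with an adjusted p (Benjamini-Hochberg) under 0.05. The fit was repeated without month 4 library 5. SE is the log2 fold change over the square root of F. Levels are CPM on TMM-scaled totals, and list means use log2(CPM + 0.5). DESeq2 1.42.0 and limma 3.58.1 (voom) were alternatives, with other filters, scalings, libraries left out and the replicate number as a block. The fitting code was tested on simulated data. Named genes were to be the 12 called of smallest p in each direction, or, with fewer than 16 called, the 8 uncalled each way of smallest p in the fit without month 4 library 5, plus 14 reference genes and the 2 members of smallest p of each described list. Genes outside this rule are marked as picked after their values were seen. Of 752 list entries 695 were matched. The gene lists, reference genes and comparison were chosen with earlier results of these data known.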

Additional observations from a re-analysis of the deposited data

Results flagged for a closer look

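Of 144 groups of 5 libraries examined, 1 per named gene and age, 52 held a library far from the other 4 in CPM, that is with a gap to its nearest neighbour too wide for the range of the group. In data with no such libraries this gap turns up in about 1 of 20 groups, but that rate does not apply to this count, because CPM are skewed and several of the genes were named for their p or after their values were seen. The library was month 4 library 5 in 29 cases, month 6 library 2 in 14, month 4 library 2 and month 6 library 3 in 3 each, and month 4 libraries 1 and 3 and month 6 library 1 in 1 each.

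Month 4 library 5 was far above its group for matrix, muscle and vessel genes. ELN stood at 11534 CPM, COL1A1 at 8882, MYH11 at 3491, MGP at 1859, LOX at 1656, COL8A1 at 1450, BGN at 690, KCNMB1 at 277, LTBP2 at 247, SYNM at 216 and MMP28 at 60.2. Lymphatic genes were high as well, with MMRN1 at 215 CPM, LYVE1 at 87.3 and PROX1 at 76.1. So were the growth and fetal genes IGF1 at 1198 CPM, SFRP4 at 93.6, MEST at 68.3, IGFBP2 at 35.8, IGFALS at 10.9 and IGFBP1 at 2.01. The interferon and stress genes DDX58 at 318 CPM, JUN at 202, IFIH1 at 91.5 and NR4A3 at 10.2 were high, and so were CXCL14 at 49.6, C5H12orf75 at 47.9, PTGS2 at 47.7 and LGALS15 at 1.87. FOXA2 was low, at 0.

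Month 6 library 2 was far above its group for SERPINA14 at 6152 CPM, GRP at 5945, CXCL14 at 2762, PTGS2 at 1604, EPCAM at 444, IL1R2 at 289, SLC2A1 at 281, LGALS15 at 263, IGFBP1 at 238, HPGD at 203, NR4A3 at 139, CLDN4 at 92.7, FGF9 at 65.3 and WNT4 at 42.3. Month 6 library 3 was far above for JCHAIN at 601 CPM, FOXJ1 at 65.7 and RSPH1 at 6.25. Month 4 library 2 was high for PKM at 177 CPM, CEMIP at 5.80 and TEKT2 at 3.36, month 4 library 3 for SERPINA14 at 42.8, month 4 library 1 for WNT4 at 3.99 and month 6 library 1 for SFRP4 at 5.33.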

How the results depend on the processing

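The count of genes called by edgeR, 0 with all libraries and 0 without month 4 library 5, was 53 and 65 with DESeq2. It stayed at 0 with the compared groups alone, limma-voom with or without quality weights, RLE scaling, no filter, a filter of 1 CPM in 5 libraries, no minimum fold, and both month 4 library 5 and month 6 library 2 left out, an alternative chosen after seeing the data. Leaving out each library in turn gave 0 calls, and from the comparison without month 4 library 5 it gave 0 to 1, the 1 being LOC102181272 without month 4 library 2 (log2 fold change 7.91, edgeR adjusted p = 0.001), which read 0, 0 and 0.0571 CPM in month 4 libraries 3, 4 and 1 and 2.77 to 6.60 at month 6. At an unadjusted p under 0.05 the count, 2028 with all libraries, ran from 1290 (without month 6 library 2) to 3508 (without month 4 library 2), and was 1047 with the compared groups alone. Without month 4 library 5 it was 2047, and then 960, 3729, 1306 and 1265 with month 4 library 1, 2 or 3 or month 6 library 2 also left out, and 1104 with the compared groups alone. Same-numbered animals showed no common deviation (correlations -0.317, 0.0528, 0.233, 0.177 and -0.093 for numbers 1 to 5). Pairs of different numbers ran from -0.322 to 0.345. With 5 numbers these values cannot decide whether the numbers pair the libraries. With the replicate number as a block, 0 genes were called with all libraries and 1 without month 4 library 5, LYVE1 (log2 fold change 1.3, edgeR adjusted p = 0.038). With all libraries DESeq2 called 3 list members and 8 of the genes named by rule. The block without library 5 called 1, LYVE1, which is both. DESeq2 without library 5 was not counted in this way. Its calls included the list members PTGS2, NR4A3, IGFBP2, LGALS15, FXYD4 and LYVE1.

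Of 71 named genes with a fit, 50 kept their direction under every alternative counted and 21 did not, in 78 of 1487 gene alternatives. In 9 of the 1487 the gene was past the threshold. The alternatives counted are those to the fit with all libraries. Other tools, scalings and filters run without month 4 library 5 are not among them. There DESeq2 called further named genes, such as MMP28, MGP and BNC2. Without month 4 library 5, 11 turned: MMP28 (1.55), COL8A1 (1.17), COL1A1 (0.90), MMRN1 (0.75), SFRP4 (0.74), PROX1 (0.54), LOX (0.27), MKI67 (0.21), BGN (0.12), LTBP2 (0.11) and ESR1 (-0.10). With the 9 compared libraries alone the values were 1.55, 1.17, 0.89, 0.75, 0.74, 0.55, 0.27, 0.20, 0.12, 0.11 and -0.10. With the block as well they were 1.5, 1.04, 0.76, 0.81, 0.64, 0.56, 0.28, none for MKI67, 0.09, 0.23 and -0.08, and FOXJ1 was -0.53. With month 6 library 2 also out they were 1.26, 1.11, 0.91, 0.81, 0.77, 0.60, 0.26, 0.48, 0.28, 0.15 and -0.07, with OXTR at -0.10 and SLC2A1 at -0.15. With all libraries and the block MMP28 was 0.26, HOXA10 0.20, MMRN1 0.19 and FOXJ1 -0.02. Limma-voom gave MMP28 0.60, HOXA10 0.49, MMRN1 0.32, PGR 0.10, PROX1 0.05 and FOXJ1 -0.13, and with quality weights MMP28 1.04, MMRN1 0.77, COL8A1 0.44, LTBP2 0.44, PROX1 0.35, SFRP4 0.23, HOXA10 0.20, COL1A1 0.18 and FOXJ1 -1.05. With single libraries left out, values ran from -0.34 to 0.27 for HOXA10, -0.19 to 0.75 for IGF1, -6.80 to 1.17 for COL8A1, -3.45 to 0.74 for SFRP4, -3.32 to 0.11 for LTBP2, -2.87 to 0.27 for LOX, -2.72 to 0.12 for BGN, -1.67 to 0.90 for COL1A1, -1.5 to 0.21 for MKI67, -0.78 to 0.54 for PROX1 and -0.25 to 0.75 for MMRN1. Without month 6 library 2 C5H12orf75 was -0.20 (highest 1.38 with another library out), NR4A3 -0.18 (4.42), SLC2A1 -0.27 (1.85) and IGFBP1 -0.87 (7.44). Without month 6 library 3 JCHAIN was -0.07 (highest 2.81) and FOXJ1 -1.57 (1.97). Of 35 list medians 11 kept their sign under every alternative of this same set and 15 changed it without month 4 library 5. The causes were not tested beyond these values. Depth limits genes near 0, such as MMP1 and LGALS15, which had no count in most month 4 libraries. In the main fits the p-values cover the spread between animals, shared over the 4 uterus ages. Each age has 5 animals, or 1 fewer at month 4 without library 5.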
